A study of Homo sapiens with 8 samples.

Results

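Chromosomes 4, 13 and 18 held 3606 of the 35375 control peaks and 1962 of the 23488 SETD2 knockdown peaks of histone H3 trimethylated at lysine 36 (H3K36me3). They were chosen as autosomes of low gene density, none commonly reported with a whole extra copy in HepG2, and set against chromosomes 1, 12 and 19. HepG2 is a human hepatocellular carcinoma line, and its cells stably expressed an shRNA against SETD2 or a non-targeting control shRNA, both delivered by lentivirus and kept under puromycin (1 µg/mL). H3K36me3 immunoprecipitates and input DNA came from each line, with 2 replicates in each of the 4 groups. Both replicates were pooled before peaks were called, so each condition had 1 list, built on 47880817 filtered control tags and 67053273 filtered knockdown tags. The spread among replicates was therefore not measurable, and conditions were compared without a test. The labels do not say if replicates were grown apart. Exact (Clopper-Pearson) 95% intervals beside shares describe counting error alone. Coordinates refer to hg19.

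H3K36me3 is laid down along transcribed gene bodies by SETD2, which travels with elongating RNA polymerase II. Its domains therefore follow active genes, and stretches without genes carry little of it. Chromosome 4 carries the genes of the secreted liver proteins albumin (ALB), alpha-fetoprotein (AFP) and fibrinogen beta (FGB), chromosome 13 the tumour suppressor gene RB1 and chromosome 18 the signalling gene SMAD4. Gene positions on hg19 were not used here, so no peak was assigned to a gene and no sequence of a peak is given.

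Low gene density was borne out by a RefSeq gene table on GRCh38.p14, which was used for counts of genes alone. Chromosome 13 had the lowest density of protein-coding genes of the 22 autosomes (338 genes, 2.96 per Mb), chromosome 18 the next (270, 3.37 per Mb) and then chromosome 4 (770, 4.05 per Mb). Chromosome 1 had 8.28 genes per Mb, chromosome 12 had 7.69 and chromosome 19 had 24.8, the highest. The same 3 chromosomes had the lowest coverage by control peaks. Control peaks covered 5.37% of chromosome 4, 5.50% of chromosome 18 and 6.23% of chromosome 13, the 3 lowest shares of the 22 autosomes, taken over the span from the first to the last peak of either list. The shares were 8.79% on chromosome 1, 9.32% on chromosome 12 and 17.2% on chromosome 19. Per gene these chromosomes were not low. Chromosomes 13 and 18 had 3.12 and 3.04 control peaks per protein-coding gene, the highest of the autosomes, and chromosome 4 had 2.25, against a median of 1.86 over the autosomes and 1.07 on chromosome 19.

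Spacing was the first question: whether peaks on gene-poor chromosomes were spread more thinly or gathered in groups far apart. Neighbouring control peaks lay about as close as on the comparison chromosomes, and the difference was in the share of the span within gaps over 1 Mb. The median gap, from the end of a peak to the start of the next, was 4.14 kb on chromosome 4, 3.55 kb on chromosome 13 and 5.10 kb on chromosome 18. Chromosomes 1, 12 and 19 had 4.46, 3.83 and 4.69 kb, within the same range. Gaps under 1 kb made up 24.9% of all gaps on chromosomes 4, 13 and 18 and 25.3% on chromosomes 1, 12 and 19. At the long end, 78 of the 3603 gaps on the gene-poor chromosomes exceeded 1 Mb, and together they took up 213.7 Mb, or 58.8% of the span. On chromosomes 1, 12 and 19, 67 of 7005 gaps exceeded 1 Mb and took up 36.1% of the span, and over all autosomes but 4, 13 and 18 such gaps took up 45.1%. By chromosome these long gaps took up 60.8% of chromosome 4, 58.5% of chromosome 13 and 54.6% of chromosome 18. The shares were 39.97% on chromosome 1, 37.97% on chromosome 12 and 15.4% on chromosome 19. Counted from the lowest of the 22 autosomes, chromosome 4 ranked 21, chromosome 13 ranked 19 and chromosome 18 ranked 17. Other autosomes were as high, with 62.1% on chromosome 21 and 59.8% on chromosome 8. In the number of such gaps for its span, chromosome 13 ranked 12 of 22.

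The longest gap between control peaks on chromosome 13 ran from 80912227 to 92001166 (11.1 Mb), and 1 knockdown peak lay inside it. The next on that chromosome ran from 64628919 to 73279562 (8.65 Mb), with no knockdown peak. On chromosome 4 the longest were 27020392 to 37610558 (10.6 Mb) and 130003879 to 139091657 (9.09 Mb), and neither held a knockdown peak. These 3 gaps were thus empty in both lists. Chromosome 18 had shorter ones, from 61032525 to 66342457 (5.31 Mb) and from 14225453 to 18539531 (4.31 Mb). The first of these held 6 knockdown peaks and the second none. Longer gaps between control peaks occurred elsewhere, of 21.3 Mb on chromosome 1 and of 28.7 Mb on chromosome 9, the longest over all chromosomes. Gaps were measured between called peaks alone. Stretches of the build that are unsequenced or cannot be mapped were not taken out of gaps, spans or windows, so an empty stretch need not be one without the mark.

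In the knockdown the median gap was 8.03 kb over the gene-poor chromosomes and 6.03 kb over the others, from 4.09 and 4.33 kb in the control. It was 8.68 kb on chromosome 4, 7.18 kb on chromosome 13 and 7.33 kb on chromosome 18, against 6.05, 5.40 and 7.17 kb on chromosomes 1, 12 and 19. Chromosomes 13, 18 and 19 thus had close medians, near the 7.32 kb over all chromosomes. Gaps over 100 kb rose as a share of all gaps from 10.4 to 18.8% on chromosomes 4, 13 and 18 and from 8.71 to 11.9% on chromosomes 1, 12 and 19. Their number hardly moved on the gene-poor chromosomes, at 373 in the control and 368 in the knockdown, while the number of peaks fell to 54.4% of the control. A nearly constant number was not particular to these chromosomes. Over all chromosomes it went from 3655 to 3745, while the number of peaks fell to 66.4%. On chromosomes 1, 12 and 19 it went from 610 to 689, while peaks fell to 82.8%.

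**Figure D1:**
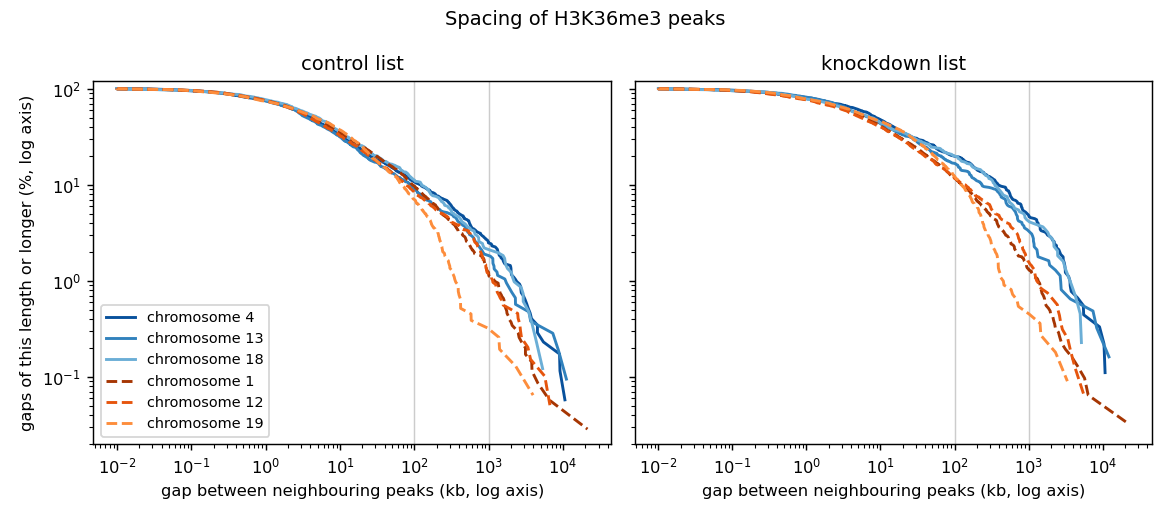
Share of gaps between neighbouring peaks (vertical axis, percent, log) that are at least as long as the length on the horizontal axis (kb, log), for the control list (left) and the knockdown list (right). Solid blue lines are chromosomes 4, 13 and 18, dashed orange lines chromosomes 1, 12 and 19, and grey lines mark 100 kb and 1 Mb; in the control the lines run together below about 10 kb and separate at the long end, where 2.17% of gaps on the gene-poor chromosomes and 0.957% on the others exceed 1 Mb.

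Joining control peaks within 100 kb of each other gave 376 islands on the gene-poor chromosomes, 188 on chromosome 4, 96 on chromosome 13 and 92 on chromosome 18. There were 1.04 islands per Mb, against 1.39 on chromosomes 1, 12 and 19. The median island held 7 peaks (quartiles 2 and 13) over 89.3 kb, and on the comparison chromosomes 8 peaks (3 and 16) over 119 kb. Islands on the gene-poor chromosomes stretched over 14.5% of the span and on the others over 26.4%. The fullest island of these chromosomes, on chromosome 13, held 78 peaks. A knockdown peak lay in 300 of the 376 islands, which is 79.8% (75.4 to 83.7%), near the 80.7% of all control islands. It was 90.7% (88.1 to 92.9%) on chromosomes 1, 12 and 19. Of the 137 gene-poor islands with 10 or more control peaks, 129 held a knockdown peak (94.2%), against 97.3% of all islands of that size and 98.8% on chromosomes 1, 12 and 19. In the knockdown list itself, the median island on the gene-poor chromosomes held 3 peaks over 37.8 kb, against 5 peaks over 80.2 kb on chromosomes 1, 12 and 19.

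Kept control peaks, those overlapped by a knockdown peak by at least 1 bp, numbered 1134 of 3606 on the gene-poor chromosomes, or 31.4% (29.9 to 33.0%), against 39.5% of all control peaks. By chromosome it was 31.0% (28.8 to 33.2%) on chromosome 4, 34.3% (31.4 to 37.2%) on chromosome 13 and 28.8% (25.7 to 32.0%) on chromosome 18. It was 53.1% (51.4 to 54.7%) on chromosome 1, 48.9% (46.7 to 51.1%) on chromosome 12 and 47.5% (44.97 to 50.003%) on chromosome 19. The intervals of the 3 gene-poor chromosomes lay below those of the 3 others, and overlapped among themselves. Peaks next to each other on a chromosome are not independent, so these intervals are narrower than the true uncertainty. The gene-poor chromosomes were not the lowest of the autosomes. Counted from the lowest, chromosome 18 ranked 3, chromosome 4 ranked 6 and chromosome 13 ranked 8 of 22, and the lowest autosome, chromosome 20, had 24.4%. Chromosomes 1 and 12 were the 2 highest, so the comparison set holds the upper end of the range. All autosomes but 4, 13 and 18 together kept 40.5%. Across the 22 autosomes the kept share and the number of control peaks per Mb had a Pearson correlation of 0.45 and a Spearman correlation of 0.48, given as a description since all points share the same 2 lists. With the median fold enrichment of control peaks over input, the kept share had correlations of 0.53 and 0.49.

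**Figure D2:**
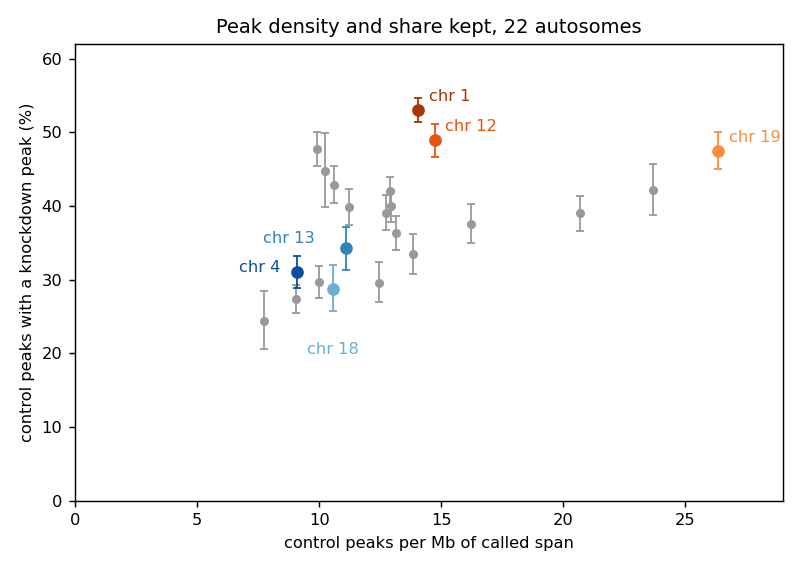
Control peaks per Mb of the span between the first and last peak (horizontal axis) against the percentage of control peaks overlapped by a knockdown peak (vertical axis), 1 point per autosome with its exact 95% interval. Chromosomes 4, 13 and 18 (blue, 28.8 to 34.3%) lie below chromosomes 1, 12 and 19 (orange, 47.5 to 53.1%), with the other autosomes (grey) on both sides of them.

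The knockdown calls were weak by the authors' FDR: 51 of the 1962 knockdown peaks on the gene-poor chromosomes had an FDR of 5% or less (2.60%, against 5.3% of all knockdown peaks). Of their 3606 control peaks 1661 did (46.1%, against 50.5% of all control peaks). Of those 1661 control peaks 57.9% were kept, against 64.3% of such peaks over all chromosomes. On chromosomes 1, 12 and 19, 7.40% of knockdown peaks had an FDR of 5% or less. Knockdown peaks lying on control peaks had a median FDR of 73.09% on the gene-poor chromosomes and 62.02% on the comparison chromosomes.

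By length, knockdown peaks lay over 31.5% of the control length on chromosome 4, 32.6% on chromosome 13 and 32.2% on chromosome 18, so these 3 hardly differed. On chromosomes 1, 12 and 19 they lay over 53.2, 48.9 and 51.9% of it, and on all autosomes but 4, 13 and 18 over 40.5%. Total knockdown length, peaks off control peaks included, was 3.56 Mb against 10.2 Mb in the control on chromosome 4 (34.8%), 2.34 against 5.91 Mb on chromosome 13 (39.5%) and 1.74 against 4.28 Mb on chromosome 18 (40.7%). Within a kept control peak, knockdown peaks covered a median of 56.2% of the width on the gene-poor chromosomes, 78.3% on the comparison chromosomes and 70.0% on all autosomes but 4, 13 and 18. Of the kept peaks, 337 (29.7%) were overlapped by 2 or more knockdown peaks, against 26.5% over all chromosomes.

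Peak strength separated kept from lost control peaks on these chromosomes, much as on the other autosomes. Kept ones had a median fold enrichment over input of 7.45 and a median width of 7.76 kb, and lost ones 4.21 and 2.45 kb. On all autosomes but 4, 13 and 18 kept peaks had 7.33 and 7.38 kb, and lost ones 4.22 and 2.65 kb. Fold enrichment is the authors' value and is used here to rank peaks within a list. In the highest 2 deciles of the whole control list (fold enrichment of 7.83 or more), 512 of 566 peaks on chromosomes 4, 13 and 18 were kept, or 90.5% (87.7 to 92.8%). Chromosomes 1, 12 and 19 kept 91.4% (89.9 to 92.7%) in the same class, which was not distinguishable by an overlap of 1 bp. Coverage of these strong kept peaks did differ, with a median of 59.4% of the width on the gene-poor chromosomes. It was 79.1% on the comparison chromosomes and 73.4% on all autosomes but 4, 13 and 18. Weaker peaks of the pooled sets differed in the share kept as well. Deciles 6 to 8 (4.89 to 7.82) gave 41.6% (38.7 to 44.5%) on the gene-poor and 54.5% (52.4 to 56.6%) on the comparison chromosomes, with 50.2% on all autosomes but 4, 13 and 18. In the lower 5 deciles, with fold enrichments up to 4.88, 158 of 1924 peaks were kept, or 8.21% (7.02 to 9.53%), against 25.4% (23.9 to 27.0%) and 14.9% (14.3 to 15.5%).

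That gap in weaker peaks was not shared by all 3 comparison chromosomes. In deciles 6 to 8 chromosomes 1 and 12 kept 59.3 and 60.2%, but chromosome 19 kept 37.4% (33.2 to 41.8%), an interval that overlaps the gene-poor one. In the lower 5 deciles chromosome 1 kept 31.9% (29.7 to 34.2%) and chromosome 12 kept 22.3% (19.7 to 25.2%), but chromosome 19 kept 9.36% (6.96 to 12.3%). Chromosome 4 kept 7.65% (6.0 to 9.58%) of them, chromosome 13 kept 10.2% (7.81 to 13.1%) and chromosome 18 kept 6.96% (4.84 to 9.64%). The gene-richest autosome and the 3 gene-poor ones thus had overlapping intervals for weak peaks. Chromosome 19 had 34.95% of its control peaks in the highest 2 deciles, against 15.7% on chromosomes 4, 13 and 18.

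With peaks of all autosomes except 4, 13 and 18 as the reference in each decile, 37.1% of the gene-poor peaks would have been kept. The observed minus the expected share was -5.70 percentage points, with -6.82 on chromosome 4, -3.25 on chromosome 13 and -6.48 on chromosome 18. By the same measure chromosome 1 stood at 11.4 points, chromosome 12 at 7.39 and chromosome 19 at -5.06. The median autosome stood at -3.50 points, so chromosome 13 was near the middle of the autosomes, and chromosome 19 lay between chromosomes 13 and 18.

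**Figure D3:**
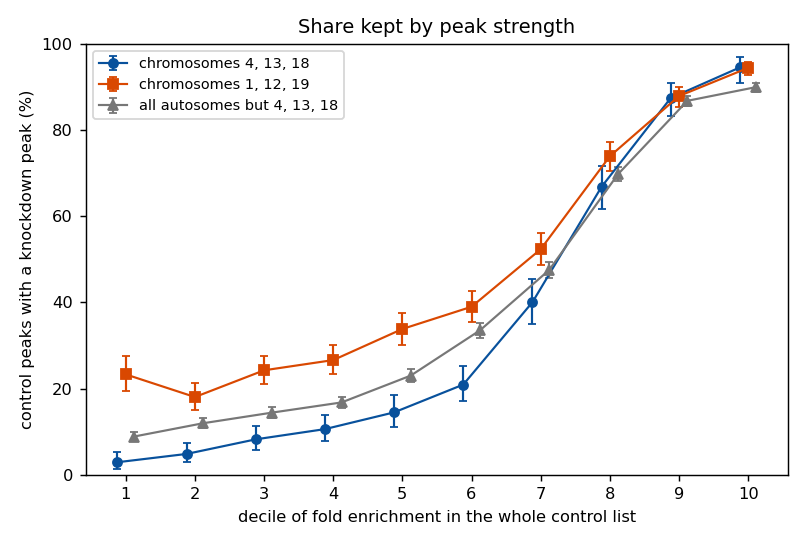
Percentage of control peaks overlapped by a knockdown peak (vertical axis) in each decile of fold enrichment of the whole control list (horizontal axis), with exact 95% intervals, for chromosomes 4, 13 and 18 (blue circles), chromosomes 1, 12 and 19 (orange squares) and all autosomes but 4, 13 and 18 (grey triangles). The blue points run from 2.92% in the lowest decile to 94.6% in the highest and meet the orange ones in the top 2 deciles, below which they are lower.

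Isolated domains were defined as control peaks with no other control peak within 100 kb. There were 63 on the gene-poor chromosomes, 26 on chromosome 4, 20 on chromosome 13 and 17 on chromosome 18. They were 1.75% of the control peaks, against 1.77% over all chromosomes and 1.2% on chromosomes 1, 12 and 19. The share of isolated peaks was thus close to that of the genome as a whole. Isolated peaks spanned 0.986 to 45.1 kb in width (median 2.89 kb) and 3.04 to 19.8 in fold enrichment (median 5.37). The other control peaks of these chromosomes had medians of 3.18 kb and 4.72.

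Of the 63 isolated peaks 33 were kept, or 52.4% (39.4 to 65.1%), near the 48% of all isolated control peaks. Of the 3543 others, 31.1% (29.6 to 32.6%) were kept, an interval below that of the isolated ones. By chromosome, 10 of 26 were kept on chromosome 4, 13 of 20 on chromosome 13 and 10 of 17 on chromosome 18. On chromosomes 1, 12 and 19, 62 of 84 were kept, or 73.8% (63.1 to 82.8%). Strength differed among the isolated peaks. The 31 with an FDR of 5% or less had a median fold enrichment of 11.4, and 26 of them were kept (83.9%, 66.3 to 94.5%), against 69.6% of all isolated peaks of that FDR, a share inside the interval. Others with an FDR of 5% or less on the same chromosomes had a median fold enrichment of 6.51, and 57.4% of them (54.98 to 59.8%) were kept. The 32 isolated peaks with an FDR above 5% had a median fold enrichment of 3.95, and 7 were kept (21.9%, 9.28 to 39.97%), near the 20.4% of all such isolated peaks. When the kept share of the other peaks was weighted to the isolated peaks' deciles of fold enrichment, it came to 45.6%, inside the interval of the isolated share. Weighted to their deciles of width it came to 34.0%, below that interval, so the comparison depends on which measure of the peaks is matched.

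**Figure D4:**
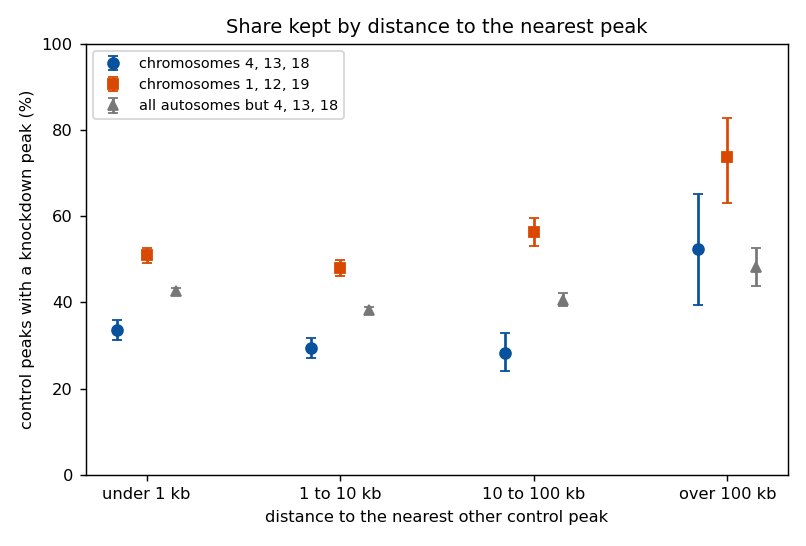
Percentage of control peaks overlapped by a knockdown peak (vertical axis) by distance to the nearest other control peak (horizontal axis), with exact 95% intervals, for chromosomes 4, 13 and 18 (blue circles), chromosomes 1, 12 and 19 (orange squares) and all autosomes but 4, 13 and 18 (grey triangles). On the gene-poor chromosomes the share was 33.6% under 1 kb, 29.3% at 1 to 10 kb, 28.3% at 10 to 100 kb and 52.4% over 100 kb.

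Of the isolated peaks with an FDR of 5% or less on these chromosomes, the farthest from its nearest neighbour lay on chromosome 13 from 92001167 to 92009908, with 11.1 Mb to the control peak before it and 1.87 Mb to the one after it. Its tag density, in immunoprecipitated tags per kb per 1000000 filtered tags, came to 3.18 (3.01 to 3.36, an exact Poisson 95% interval), against 1.91 (1.79 to 2.03) in the knockdown peak over it. Another, on chromosome 13 from 107193822 to 107213536, lay 3.66 and 1.65 Mb from its neighbours. It had 2.55 (2.45 to 2.65) in the control and 1.21 (1.15 to 1.28) over 3 knockdown peaks. Both had a knockdown peak at a lower density. On chromosome 4 the peak from 75025139 to 75029345, with 702 kb before and 1.37 Mb after it, had densities of 1.6 (1.43 to 1.78) and 1.03 (0.903 to 1.17). The second one there, from 90604377 to 90609010, had 1.74 (1.57 to 1.92) in the control and no knockdown peak. On chromosome 18 the peak from 60997377 to 61032524 stood at the edge of that chromosome's longest gap and had 2.17 (2.10 to 2.24) and 1.07 (1.02 to 1.11). The other, from 56816150 to 56825815, had 1.68 (1.56 to 1.80) and 0.820 (0.732 to 0.916).

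Wide domains were kept more often than other peaks, in pieces. Of the 169 control peaks of 20 kb or more on the gene-poor chromosomes, 154 were kept, or 91.1% (85.8 to 94.9%), against 84.2% over all chromosomes. Chromosomes 1, 12 and 19 kept 351 of 389, or 90.2% (86.8 to 93.0%), much the same share. An overlap of 1 bp is reached more easily by a wide peak. At least 50% of the width was covered in 95 of the 169. That held for 280 of 389 on chromosomes 1, 12 and 19 and 1095 of 1883 on all autosomes but 4, 13 and 18. Of those 154, 133 (86.4%) were overlapped by 2 or more knockdown peaks, with a median of 3 that covered a median of 59.7% of the width. On chromosomes 1, 12 and 19, 262 of 351 (74.6%) were overlapped by 2 or more, and the median coverage was 79.5%. All autosomes but 4, 13 and 18 had 72.9 and 70.1%. Knockdown peaks of 20 kb or more numbered 10 on the gene-poor chromosomes, 5.92% of the control number, and 119 on the comparison chromosomes, 30.6% of it, with 16.6% on all autosomes but 4, 13 and 18.

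The widest control peak of chromosome 4 ran from 83738321 to 83807143 (68.8 kb). Its density was 4.50 (4.43 to 4.58) in the control and 1.84 (1.80 to 1.88) in the 3 knockdown peaks over it, which covered 98.1% of its width. The next on that chromosome, from 187503223 to 187565138, had 3.98 (3.91 to 4.05) against 1.19 (1.13 to 1.25), with 28.5% of its width covered. On chromosome 13 the widest, from 99031319 to 99095591, was broken into 8 knockdown peaks and had 2.15 (2.10 to 2.21) and 0.997 (0.962 to 1.03). Its own call was weak, with a score of 65.7 and an FDR of 14.63%, and control peaks lay 0.012 and 0.261 kb from its ends. The other wide one there, from 73303715 to 73354626, had 2.71 (2.65 to 2.78) and 0.942 (0.894 to 0.992) over 5 knockdown peaks. On chromosome 18 the peak from 60196450 to 60248008 (51.6 kb) had 3.56 (3.49 to 3.64), and a single knockdown peak of 1.90 kb lay in it, with 0.824 (0.674 to 0.997). The second, from 33711759 to 33756382, had 2.76 (2.69 to 2.84) and 1.32 (1.27 to 1.37). Control densities were taken over the whole domain and knockdown densities over the called pieces in it, so the pair of values is no fold change of the domain. A lower density does not tell fewer marked cells from less mark per cell.

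Ranked by fold enrichment, the first 3 control peaks of each chromosome were taken, and 8 of these 9 were kept. In the highest decile of fold enrichment 94.6% of peaks were kept on these chromosomes and 90.4% over all chromosomes, so 8 of 9 was no unusual share. On chromosome 4 the first, from 57826669 to 57841767, had a density of 2.77 (2.65 to 2.90) in the control and 1.25 (1.17 to 1.33) in the knockdown. Another at the start of the chromosome, from 418941 to 467382, had 3.09 (3.02 to 3.16) and 1.35 (1.31 to 1.39) over 6 knockdown peaks, and the third, from 38677525 to 38700898, had 2.75 (2.66 to 2.85) and 1.28 (1.22 to 1.34). On chromosome 18 the densities were 3.74 (3.63 to 3.86) and 1.61 (1.55 to 1.68) from 55264884 to 55288225, and 4.59 (4.45 to 4.73) and 1.94 (1.85 to 2.02) from 43658785 to 43677010. The third there, from 19193063 to 19212943, had 2.65 (2.55 to 2.75) and 1.24 (1.18 to 1.31). Kept peaks of chromosome 13 had 2.68 (2.52 to 2.85) and 1.67 (1.52 to 1.83) from 28220926 to 28228861, where 52.0% of the width was covered, and 2.74 (2.58 to 2.89) and 1.41 (1.29 to 1.55) from 20177107 to 20186351, with 53.3% covered. At all 8 the density of the knockdown pieces was below that of the control peak. These peaks were chosen by their control values, and 98.1% of all matched pairs of control and knockdown peaks were lower in the knockdown.

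The 1 of the 9 that was not kept lay on chromosome 13. It ran from 98631484 to 98676615 (45.1 kb), held 9226 control tags at a density of 4.27 (4.18 to 4.36) and a fold enrichment of 19.8, and had no knockdown peak. It was also an isolated one, 123 kb from its nearest neighbour. The strongest control peaks without a knockdown peak on the other 2 chromosomes were 99990614 to 100007852 of chromosome 4, at a density of 3.34 (3.22 to 3.47), and 12339551 to 12372340 of chromosome 18, at 2.45 (2.37 to 2.52). Knockdown tags in control peaks without a knockdown peak were not analysed here.

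Control and knockdown peaks with a mutual overlap of 50% or more of each width formed 479 matched pairs on the gene-poor chromosomes, and 13.3% of the control peaks there were in a pair. On chromosomes 1, 12 and 19 it was 30.8%. Density, each over its own list's peak, was lower in the knockdown in 474 of the 479 (98.96%), near the 98.1% of all pairs. Knockdown over control, the log2 density ratio had a median of -0.64 (quartiles -0.84 and -0.43), or 1.56 times higher in the control, and it was -0.52 (-0.74 and -0.32) on the comparison chromosomes. Pairs at least 1.5 times lower in the knockdown numbered 271, or 56.6%, against 50.1% of all pairs, and 0 were 1.5 times higher, against 0% of all pairs. The median by chromosome was -0.65 on chromosome 4, -0.60 on chromosome 13 and -0.71 on chromosome 18. Chromosomes 1 and 12 had -0.46 and -0.52, and chromosome 19 had -0.70, within the range of the gene-poor ones. Knockdown peaks were the narrower in 90.4% of the gene-poor pairs and in 72.6% of those on chromosomes 1, 12 and 19. Density was scaled to each list's own filtered tags, so the ratio is relative and does not measure a loss common to all peaks. It covers only peaks called in both lists, each over its own width. The 2 sets of chromosomes differed in the share of peaks paired and in narrowing, so their medians compare differently selected pairs.

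**Figure D5:**
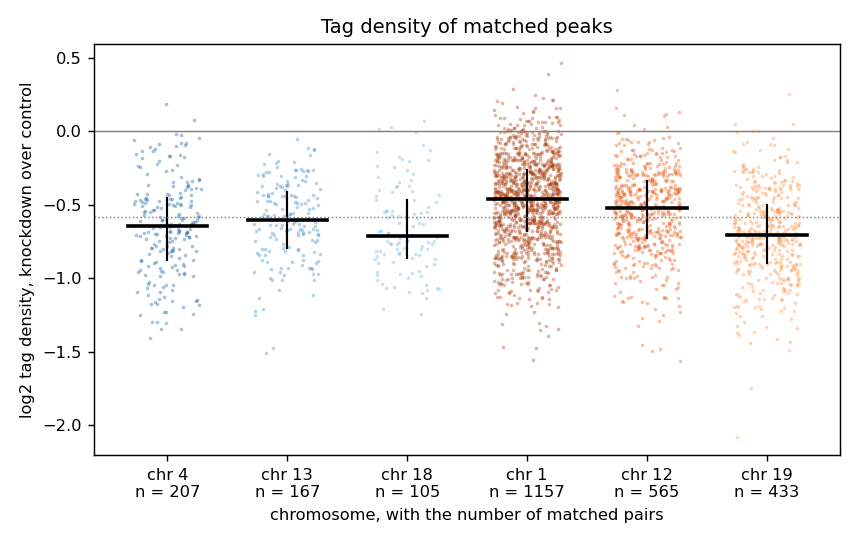
Log2 ratio of tag density in the knockdown over the control (vertical axis) for each matched pair of peaks (points), by chromosome (horizontal axis), with the median as a thick line and the quartiles as a thin line. The solid grey line is no difference and the dotted line a density 1.5 times lower in the knockdown; the medians run from -0.71 on chromosome 18 to -0.46 on chromosome 1.

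Knockdown peaks away from control peaks were few on chromosome 4. Of its 903 knockdown peaks, 96 overlapped no control peak, or 10.6% (8.70 to 12.8%), against 17% of all knockdown peaks. On chromosome 13 the share was 14.4% (11.7 to 17.4%) and on chromosome 18 it was 17.7% (14.3 to 21.6%). Chromosome 1 had 23.9% and chromosome 19 had 2.44%, so these shares did not order chromosomes by gene density. The 263 peaks on the gene-poor chromosomes had a median fold enrichment of 3.70 and the 1699 on control peaks one of 3.69. Their median FDRs were 74.05 and 73.09%. Of the 263, 4 had an FDR of 5% or less (1.52%, against 1.8% of all such knockdown peaks). Of the same 263, 33.1% lay within 10 kb of a control peak, against 31.6% on all autosomes but 4, 13 and 18. The highest by fold enrichment on each chromosome had a density of 1.06 (0.95 to 1.18) on chromosome 4 from 25395908 to 25400616, 1.4 (1.31 to 1.51) on chromosome 13 from 103315452 to 103323767, and 1.33 (1.27 to 1.39) at 21105768 to 21128188 of chromosome 18. The chromosome 13 peak was also the second-highest knockdown peak of that chromosome, and its FDR was 0%. The other 2 were weaker calls, with an FDR of 22.77% on chromosome 4 and 21.05% on chromosome 18.

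The 2 strongest knockdown peaks of each chromosome lay on control peaks, apart from that one. Chromosome 4 had them from 456262 to 467224 (density 2.08, 1.98 to 2.19) and from 1724465 to 1743879 (1.45, 1.38 to 1.52), where the control peaks had 3.09 and 3.02. Chromosome 18 had them from 55266285 to 55284712 (1.70, 1.63 to 1.78) and from 12962325 to 12965833 (1.19, 1.05 to 1.33), with 3.74 and 2.30 in the control. The first of chromosome 13, from 52753174 to 52755223, had 1.11 (0.944 to 1.30) in a control peak of 2.27. Strength here means rank by fold enrichment, and not all were firm calls by FDR. The FDR was 0% for the first peaks of chromosomes 4 and 18. It was 11.56% for the second of chromosome 4, 15.54% for the second of chromosome 18 and 38.84% for the first of chromosome 13.

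Along the chromosomes the loss was uneven, as it was on the comparison chromosomes. In windows of 1 Mb, 35.6% of the gene-poor span held no peak in either list, against 18.7% on chromosomes 1, 12 and 19. Of the 235 windows with a peak, 24 had one in the control list alone (10.2%, against 7.12% over all chromosomes), 3 in the knockdown list alone (1.28%, against 2.16%) and 208 in both. Among the 145 windows with 50 kb or more of control peaks, the median ratio of knockdown to control length was 32.3%, with quartiles of 22.3 and 46.7%, while it was 44.4% over all chromosomes and 58.2% on the comparison chromosomes. In blocks of 10 Mb with at least 100 kb of control peaks, knockdown length as a percentage of control length ran from 22.3% on chromosome 4 from 150000001 to 160000000 to 70.95% on the same chromosome from 130000001 to 140000000, a block with 11 control peaks. On chromosome 13 the last 2 blocks, from 100000001 to 120000000, had 67.6 and 65.2%, and the blocks before them with at least 100 kb had 26.4 to 39.1%. On chromosome 18 the first block, from 1 to 10000000, had 65.0% and the last, from 70000001 to 80000000, 26.0%. Blocks of chromosomes 1, 12 and 19 had a wider range, from 36.4 to 155.4%.

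The fullest control window of chromosome 4 was 2000001 to 3000000, where peaks covered 291 kb and, in the knockdown, 97.2 kb. On chromosome 13 it was from 41000001 to 42000000, with 271 and 88.3 kb, and on chromosome 18 from 12000001 to 13000000, with 254 and 100.2 kb. In all 3 the knockdown length was 32.6 to 39.4% of the control length. Knockdown peaks covered most in other windows, on chromosome 4 from 39000001 to 40000000 (289 and 174 kb), on chromosome 13 from 113000001 to 114000000 (242 and 159 kb) and on chromosome 18 from 2000001 to 3000000 (129 and 144 kb), where the knockdown covered more than the control. More knockdown than control length was found in 14 of the 235 gene-poor windows with a peak. It was found in 55 of 361 on chromosomes 1, 12 and 19 and in 202 of 2177 over all chromosomes. Chromosome 18 from 25000001 to 26000000 had 62.7 kb in 10 control peaks and no knockdown peak. The largest windows without a knockdown peak on the other 2 chromosomes were 22000001 to 23000000 of chromosome 13 (37.7 kb, 12 peaks) and 190000001 to 191000000 of chromosome 4 (18.3 kb, 4 peaks).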

How the data were processed

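Peak tables of 2 pooled conditions were analysed. Per the file headers, MACS 1.4.2 called peaks from merged alignments of both replicates against merged input, with a p-value limit of 1e-05 and 1 duplicate tag per position. The build was hg19 and the aligner Bowtie 1.1.2, per the submitters' processing notes. The deposited tag counts are whole numbers per peak, from 47880817 filtered control tags and 67053273 filtered knockdown tags. The deposited score is minus 10 times log10 of the p-value, the deposited fold enrichment is a ratio over local input, and the deposited FDR is in percent. The shorter deposited lists, with fold enrichment as a ratio, held the 17856 and 1244 peaks with an FDR of 5% or less.

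Gaps, islands, overlap of at least 1 bp, and tags per kb per 1000000 filtered tags were computed with Python 3.11.15, pandas 2.3.3, NumPy 2.4.6, SciPy 1.17.1 and matplotlib 3.10.9, and the steps were tested on simulated data. Expected shares used deciles of fold enrichment. The expected share of isolated peaks and the islands were chosen after seeing the data. Copy number and input tags per peak were not analysed here. Named peaks followed a rule of rank per chromosome: 3 by fold enrichment, 2 by width, 2 by isolation, 2 in the knockdown, and the first without a counterpart in each list. Chromosomes, comparisons and rules were chosen with earlier results of these data known.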

Additional observations from a re-analysis of the deposited data

How the results depend on the processing

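No paired analysis was possible because the lists come from merged replicates, and for the same reason no replicate could be left out. All values are for chromosomes 4, 13 and 18. With an FDR of 5% or less in both lists, 2.59% of control peaks were kept, knockdown length was 3.15% of control length (37.4% with all peaks), the median gap was 11.9 kb, 8.33% of isolated peaks were kept, 6 knockdown peaks lay off control peaks, the observed minus the expected share was -2.10 points, and the median log2 ratio was -0.85 over 29 pairs. With a score of 100 or more these were 27.6% of peaks, 32.5% of length, a gap of 6.15 kb and a ratio of -0.70. With a fold enrichment of 5 or more they were 13.3% of peaks, 14.0% of length, a gap of 13.6 kb, 97 isolated peaks with 20.6% kept, 29 knockdown peaks off control peaks, -2.97 points and a ratio of -0.84. These limits remove more of the knockdown list than of the control list. Peaks merged within 3000 bp gave 40.6% kept, a gap of 13.5 kb, 95 isolated peaks and 137 knockdown peaks off control peaks. Asking for 50% overlap gave 18.1% kept and -8.24 points. Deciles of tags per kb gave -3.61 points. Isolation at 50 kb gave 126 peaks and at 200 kb 26, and islands numbered 376. Without chromosome 4 the length was 40.02%, with 37 isolated peaks and 167 knockdown peaks off control peaks, and without chromosome 13 the last was 174. The share expected of isolated peaks by width was 34.0%, below the interval of the observed 52.4%. No result changed sign under these settings; causes were not tested. The kept share of isolated peaks rests on 63 peaks.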
